A study of Mus musculus with 3 samples.

Results

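The strongest 1% of CHD7 peaks are the peaks with the most CHD7 signal in the early mouse inner ear. They were taken as the peaks on chromosomes 1 to 19 and X whose total signal was at or above the 99th percentile of all such peaks. The total signal is the coverage added up over the bases of a peak. This gave 328 of 32662 peaks, with 32334 other CHD7 peaks below the limit. The last peak inside had a total of 4859 (chr9:122542601-122546050), and the first outside had 4855 (chr7:64469251-64473850). The peaks were thus chosen by their total signal, so their width and maximum signal, which it is built from, are given as a description. They were measured by CUT&Tag, where an antibody brings a cutting enzyme, the Tn5 transposase, to the DNA near its target protein. Wild-type otocysts, the fluid-filled vesicles that become the inner ear, were dissected from E10.5 mouse embryos, and 34 of them were pooled and dissociated. The cells were shared out to an anti-CHD7 antibody, an anti-SOX2 antibody and a control with no primary antibody, giving 1 library each. No group carried a mutation, transgene or drug treatment. The peak lists hold CHD7 and SOX2 peaks (153800 of them for SOX2 on the same chromosomes), and the control is not analysed here. All cells came from 1 pool, so nothing below has a replicate check, and read depth is unknown. Each interval is an exact 95% binomial interval over peaks; it covers counting error only, and PCR reads are not independent molecules.

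CHD7 is an ATP-dependent chromatin remodeler that slides nucleosomes at enhancers and gene starts. Loss of a copy of the gene causes CHARGE syndrome in people, and in mice malformed semicircular canals. SOX2 is a transcription factor with an HMG box that is needed for the sensory patches of the ear. Sites with extreme coverage in a genome-wide binding experiment include genes that every cell transcribes heavily, such as ribosomal RNA and spliceosomal RNA genes, and sequences present in many copies, of which a reference assembly holds only some.

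Sequence was at hand only for annotated gene starts, which lay on 12 of the 328 strongest peaks. RefSeq sequence (GRCm38.p6, the mm10 build) covered the 250 bases before 27 starts of 22 genes, of which 14 are protein-coding and 8 are lncRNA genes. The stretches before Gm40367 (chr6:47662342-47662591, plus strand) and Gm52861 (chr6:47738587-47738836, plus strand) are shown because they lie 76.2 kb apart under peaks of rank 3 and rank 117 and are nearly alike, and the capitals mark their longest shared run, of 164 bases.
Gm40367: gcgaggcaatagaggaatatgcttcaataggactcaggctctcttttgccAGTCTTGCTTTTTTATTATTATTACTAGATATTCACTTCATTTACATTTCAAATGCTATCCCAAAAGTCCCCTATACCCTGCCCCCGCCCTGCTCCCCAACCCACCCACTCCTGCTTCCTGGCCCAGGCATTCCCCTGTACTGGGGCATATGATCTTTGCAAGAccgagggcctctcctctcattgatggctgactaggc
Gm52861: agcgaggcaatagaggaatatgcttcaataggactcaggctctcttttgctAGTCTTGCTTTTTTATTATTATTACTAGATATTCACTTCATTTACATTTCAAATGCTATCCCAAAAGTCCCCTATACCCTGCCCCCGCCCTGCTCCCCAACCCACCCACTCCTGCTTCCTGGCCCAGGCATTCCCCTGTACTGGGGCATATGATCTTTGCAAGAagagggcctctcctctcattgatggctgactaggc
These sequences were identical at 99.2% of paired bases, and the Gm40367 sequence stood letter for letter before 4 starts under the rank 3 peak (Gm40369, Gm40367, Gm36327 and Gm40364), spaced 8600, 12990 and 4325 bases apart. The stretch before the second annotated start of the lncRNA gene Gm40237 (chr4:118547156-118547405, plus strand) is shown because it lies under the rank 18 peak, which has no SOX2 peak, and is itself a tandem repeat. The capitals mark a 20-base unit that occurs 6 times, every 44 bases.
Gm40237: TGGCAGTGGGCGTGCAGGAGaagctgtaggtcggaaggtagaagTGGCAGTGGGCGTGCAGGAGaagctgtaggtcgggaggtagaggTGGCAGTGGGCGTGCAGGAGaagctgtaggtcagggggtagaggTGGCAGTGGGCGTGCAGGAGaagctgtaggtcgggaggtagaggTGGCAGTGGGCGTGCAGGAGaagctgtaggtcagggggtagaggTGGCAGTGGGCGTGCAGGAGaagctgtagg
The last 150 bases before the histone gene H2bc8 (chr13:23571250-23571399, plus strand, rank 230) are shown for contrast, since none of the 24-base words before it recurred at another place among the promoters. Capitals mark CCAAT, the SOX core ACAAT and TATAAA, and the 2 ACAAT copies adjoin without sharing a base.
H2bc8: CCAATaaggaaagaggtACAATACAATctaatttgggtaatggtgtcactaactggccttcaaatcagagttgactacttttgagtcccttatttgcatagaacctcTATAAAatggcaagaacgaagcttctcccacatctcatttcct
The microRNA hairpin Mir6481, on chromosome 3, was the only one of 1005 under a strongest peak (rank 309, without SOX2). Its mature sequence is given with the seed, bases 2 to 8, in capitals.
mmu-miR-6481: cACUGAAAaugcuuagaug

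Among these 27 starts, 10 (37%) had over 50% of their 24-base words at another place among the 32585 promoters, on either strand, and 14 had none. The same held for 138 of 6666 starts on other CHD7 peaks (2.07%) and for 1448 of all 32585 (4.44%). Of the 10, 5 were the chromosome 6 copies just shown, and the others were Gm40099, Gm13278, Gm13275, Gm40237 and Gm36816. Motifs were searched on both strands. ACAAT, or ATTGT on the other strand, was in 3 of the 27 starts (11.1%), in 15% of those on other CHD7 peaks and in 27.3% of all. GGGCGG, or CCGCCC, was in 17 of the 27 (63%), against 66.7% on other CHD7 peaks and 32.9% of all. With 27 starts, some of them copies of each other and some with overlapping stretches, these shares are a description. The H2ac8 and H2bc8 stretches overlap, and the ACAAT copies counted for each are the same sites.

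The strongest peaks ranged between narrow peaks with high maxima and very broad peaks with low ones, as the plot of width against maximum signal shows. Their widths ran between 150 and 38350 bases with a median of 1600 bases, against 100 to 6050 bases and a median of 950 bases for the other CHD7 peaks. The median maximum signal, the highest coverage inside a peak, was 14 against 1.82, and the ranges were 2 to 177 and 0.455 to 37.1. The 328 peaks held 12.9% of all CHD7 peak signal in 2.66% of the covered bases. Of them, 43 were wider than 5 kb and 99 were no wider than the median of all CHD7 peaks. Broad peaks had low maxima: the 82 with the lowest maxima (2 to 8.02) had a median width of 3875 bases, and the 82 with the highest (27.9 to 177) had a median width of 600 bases. The 5 widest had ranks 1, 3, 5, 7 and 33, and all had SOX2. The narrowest was 150 bases wide (chr5:146666601-146666750, rank 316), with a maximum of 38.3, a total of 4960 and no SOX2 peak, and the next were 200 and 250 bases wide.

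**Figure D1:**
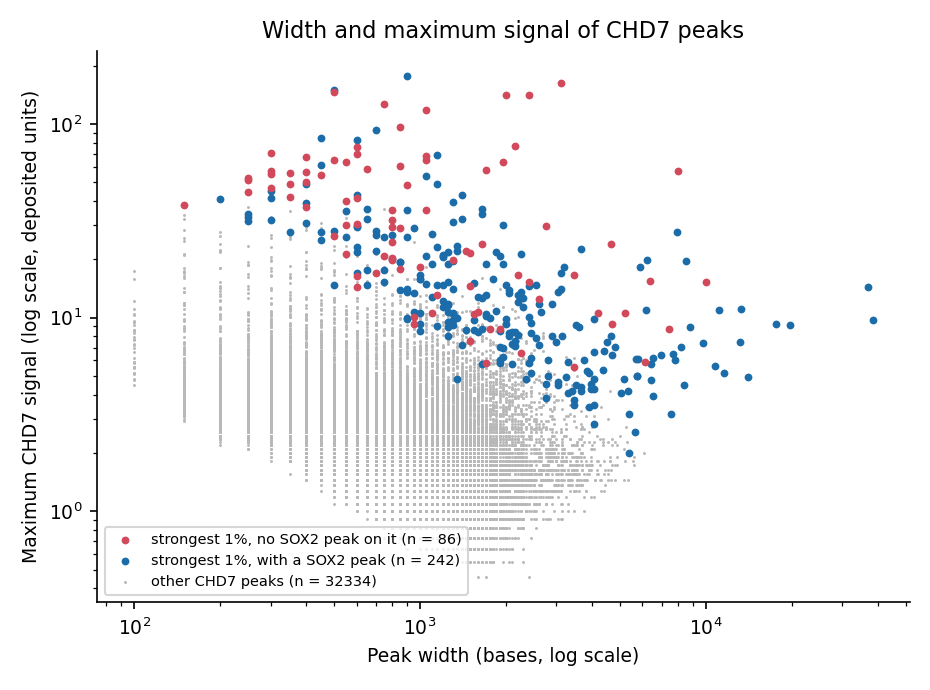
Width (bases) against maximum CHD7 signal (deposited units), both on log scales, with 1 point per CHD7 peak. The strongest 1% run from narrow peaks with maxima above 100 to peaks over 10000 bases wide with maxima of 4.92 to 14.4. The 86 without a SOX2 peak (red) had a median maximum of 30, and the 242 with one (blue) a median of 10.8.

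A SOX2 peak lay on 242 of the 328 strongest peaks (73.8%, interval 68.7 to 78.5%) and on 65.3% of the other CHD7 peaks (64.8 to 65.8%), where 1 shared base counted and 65.4% of all CHD7 peaks qualified. Ranked by maximum signal instead, the same number of peaks gave 61.3% (55.8 to 66.6%), an interval that contains the share of all CHD7 peaks. The share also varied within the strongest peaks. The share was 9 of 20 (45%, 23.1 to 68.5%) for ranks 1 to 20, 56.7% for ranks 21 to 50, 72% for ranks 51 to 100, 73% for ranks 101 to 200 and 83.6% (76 to 89.5%) for ranks 201 to 328. Just below the limit it was 86.1% between the 98th and 99th percentiles, and it was highest, 93.5%, between the 90th and 95th. The share then declined to 47.8% in the weakest 25% of CHD7 peaks. SOX2 overlap was thus lower at both ends of the CHD7 ranking than between the 90th and 95th percentiles. The intervals for ranks 1 to 20 and ranks 21 to 50 (37.4 to 74.5%) contain the 65.4% of all CHD7 peaks. That of the weakest 25% (46.7 to 48.9%) lies below it.

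**Figure D2:**
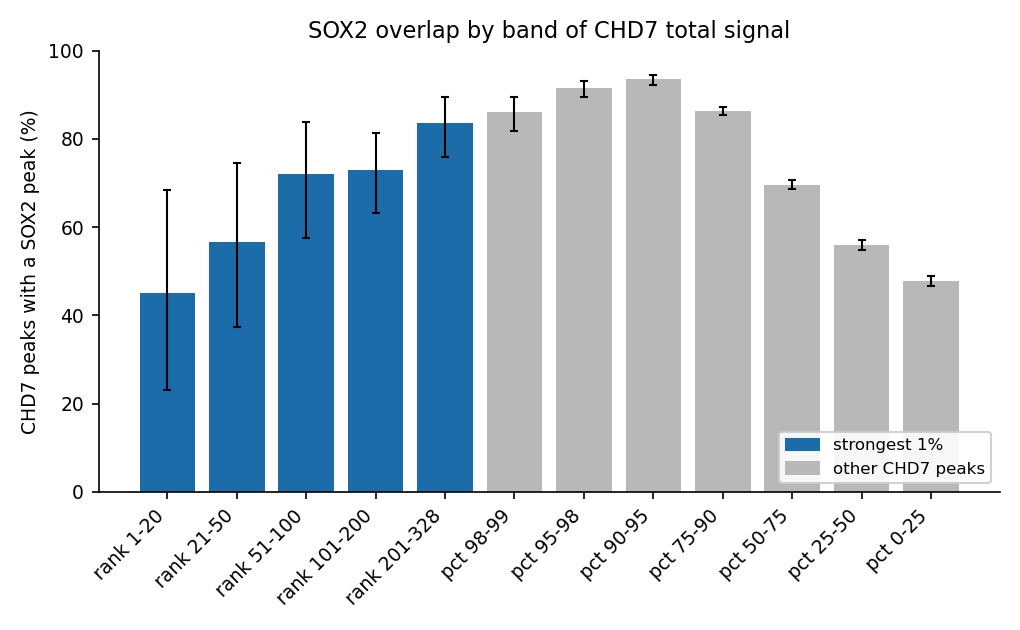
Share of CHD7 peaks with a SOX2 peak (%), by band of CHD7 total signal from the strongest (left) to the weakest; pct is the percentile of total signal. Bars are shares and whiskers exact 95% binomial intervals: 45% for ranks 1 to 20, up to 93.5% between the 90th and 95th percentiles, and 47.8% for the weakest band.

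The strongest peaks without SOX2 were narrower and had higher maxima at the median, though the ranges overlapped. Widths were 150 to 10000 bases without SOX2 and 200 to 38350 bases with it, and maxima were 5.56 to 163 and 2 to 177. The 86 without SOX2 had a median width of 875 bases and a median maximum of 30, against 1900 bases and 10.8 for the 242 with SOX2. Among the 82 strongest peaks with the highest maxima, 43.9% (33 to 55.3%) had a SOX2 peak, and among the 82 with the lowest, 93.9% (86.3 to 98%). Of the 50 highest maxima, 35 belonged to peaks without SOX2, and so did 7 of the 10 highest. Width by itself gave a like gradient in the other CHD7 peaks. At 500 bases or fewer, 48.6% of the strongest peaks (18 of 37) and 44.2% of the others had SOX2, and between 2050 and 5000 bases 85.1% and 92.1% did. The intervals of the strongest peaks contained the share of the other peaks at every width up to 2000 bases, but lay below it between 2050 and 5000 bases (75.8 to 91.8% against 92.1%). Above 5000 bases SOX2 lay on 37 of 43 strongest peaks (86%) and on 10 of 10 others. A wider peak has more bases that a SOX2 peak can touch, and the part of width in the overlap was not tested further.

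**Figure D3:**
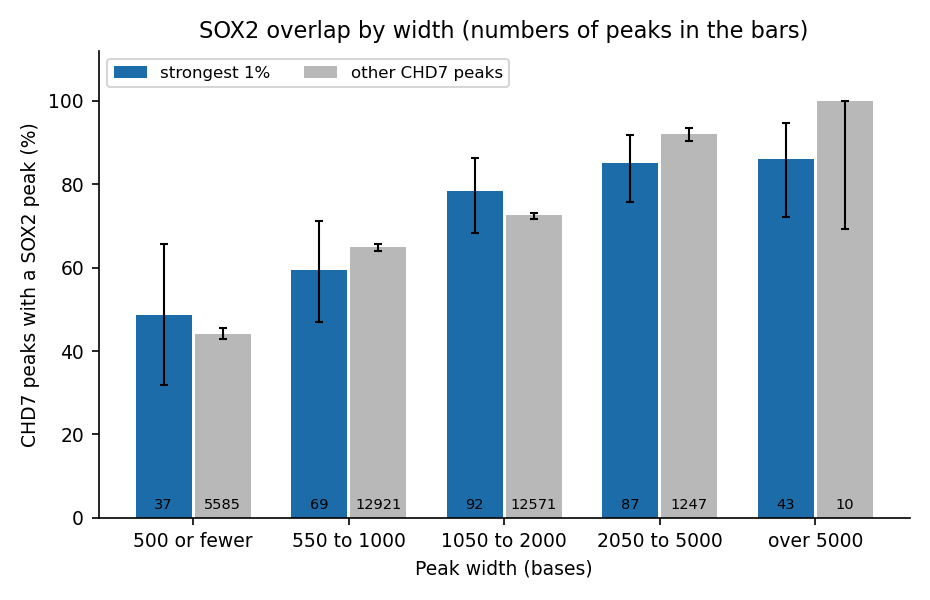
Share of CHD7 peaks with a SOX2 peak (%), by peak width (bases), for the strongest 1% (blue, left of each pair) and the other CHD7 peaks (grey); numbers of peaks stand in the bars and whiskers are exact 95% binomial intervals. The share is higher at greater width in both groups, 48.6% and 44.2% in the narrowest bin and 86% and 100% in the widest.

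The 10 strongest peaks without SOX2 included several of the highest maxima of CHD7 signal. The rank 2 peak, inside Mepe, which encodes a matrix protein of bone and teeth, had a total of 118335 and a maximum of 141 (chr5:104330451-104332450). The rank 4 peak, inside the actin-related gene Actr3b, had a total of 99262 and a maximum of 163 (chr5:25815701-25818800). The rank 6 peak, inside the ion channel gene Asic4, had a total of 79856 and a maximum of 141. The rank 12 peak, 19.8 kb from Acvr1, which encodes a type I BMP receptor, was 750 bases wide with a total of 49478 and a maximum of 127. These maxima were 69.9 to 89.6 times the list median. The other 6 of the 10 were nearest to Fam43a, Scaf8, Eci2 (fatty acid oxidation), Mindy2 (a deubiquitinase), Tmem125 and Lipc (hepatic lipase), with totals between 33643 and 56164. The rank 20 peak, 8.09 kb from Olfm1, which encodes a secreted protein of neural tissue, lacked SOX2 as well (total 28515, maximum 118), so that 11 of the 20 strongest had none. The SOX2 list had no peak on any of these 10, and the nearest SOX2 peak lay 0.8 to 16.2 kb away. Over all 86, the median distance to the nearest SOX2 peak was 5.47 kb, against 4.15 kb for the other CHD7 peaks without SOX2. The farthest of the 86 was 44.1 kb away, and 23 (26.7%) were over 10 kb away, against 23.1% of the others. Within 1 kb of a SOX2 peak lay 10 of the 86 (11.6%), against 20.6% of the others. Whether the same spikes appear without a primary antibody was not tested.

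Where a strongest CHD7 peak did have SOX2, the SOX2 peak was also among the strongest of its own list. The median rank of that SOX2 peak was 270 of 153800, against 21150 for SOX2 peaks on other CHD7 peaks. Of the 242, 219 (90.5%) lay on the strongest 1% of SOX2 peaks (1538 peaks), against 5.83% of the other shared CHD7 peaks. The strongest SOX2 peak on each CHD7 peak was used, and a wider CHD7 peak can touch more of them. SOX2 total signal is also a sum over width, and the part of width in these ranks was not tested. A median of 93.8% of the bases of a shared strongest peak was covered by SOX2 peaks, against 75%. Read the other way, 71 of the 100 strongest SOX2 peaks and 8 of the strongest 10 touched a strongest CHD7 peak, against 0.211% of all SOX2 peaks. Of the whole strongest 1% of SOX2 peaks, 244 of 1538 (15.9%) did, so most of them were not on a strongest CHD7 peak. Summits coincided less: the maximum regions shared a base in 71 of the 242 shared strongest peaks and in 6400 of the 21120 other shared CHD7 peaks. Over all peaks, where a peak without SOX2 counts as not coinciding, this was 21.6% of the 328, against 19.8% of the others and 19.8% of all. Borders were identical in 14 of the 328 (4.27%), against 1.52% of the others and 1.55% of all, on the same base. The 23 of the 242 that were not on the strongest 1% lay on weaker SOX2 peaks. The weakest SOX2 partner had rank 137922, on the rank 205 CHD7 peak (chr11:75087151-75088800). SOX2 and CHD7 signals were each ranked in their own list, since their scales cannot be compared.

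**Figure D4:**
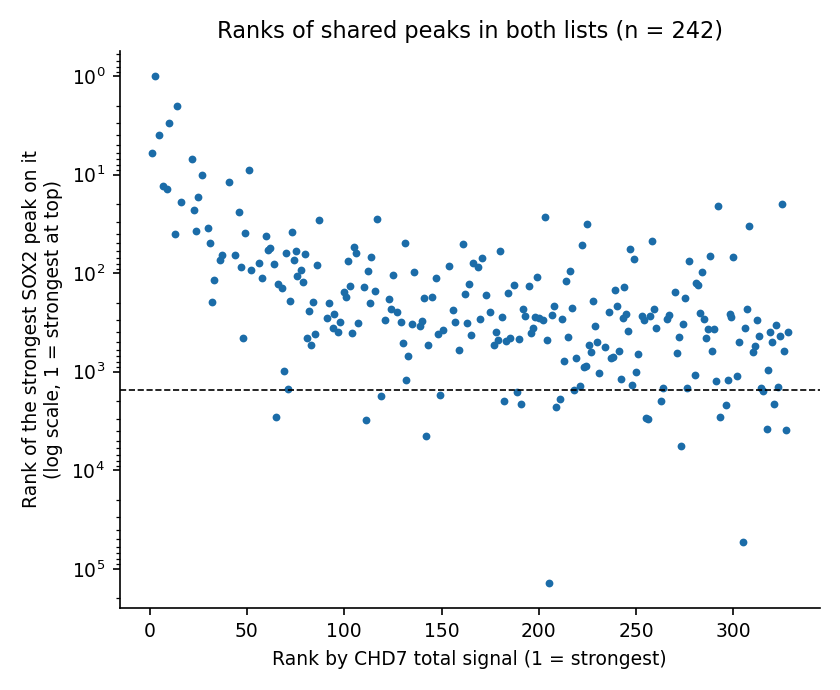
Rank by CHD7 total signal against the rank of the strongest SOX2 peak on the same place (log scale, rank 1 at the top), for the 242 strongest CHD7 peaks with SOX2. The dashed line is the limit of the strongest 1% of SOX2 peaks (rank 1538), and 219 points lie above it.

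The strongest sites of both lists included ribosomal and other repeated RNA genes. The first was the cluster of 5S ribosomal RNA genes on chromosome 8, where Pol III transcribes the small RNA of the large ribosomal subunit. There 5 strongest peaks (ranks 1, 5, 7, 22 and 141) covered 86.6 of 87 kb (chr8:123537301-123624300), over 48 annotated 5S genes with a median length of 121 bases and a median spacing of 1698 bases. The rank 1 peak was 38350 bases wide with a total of 143270, 220 times the list median, but a maximum of 9.66, and 6 SOX2 peaks lay on it. The second was the 4.5S RNA gene Rn4.5s on chromosome 6, which belongs to a rodent family of tandem copies. Its rank 3 peak (chr6:47650301-47687050) was 36750 bases wide with a total of 101785, and it held the strongest SOX2 peak of all, with a SOX2 total of 390342. A further 4 strongest peaks lay within 124 kb there, and Gm40363 in it was the only protein-coding gene with more than 1 strongest peak at its ends. The third was the rank 10 peak on the 18S ribosomal RNA copy Rn18s-rs5 on chromosome 17 (chr17:39842951-39848850), annotated as a pseudogene. It had a total of 50999, and its borders matched those of the rank 3 SOX2 peak exactly. The rank 2 SOX2 peak matched the rank 14 CHD7 peak exactly too, in the lncRNA gene Gm34259 (chr17:4626151-4626650). There the CHD7 maximum was 149 and the SOX2 maximum 1278 in 500 bases. The highest CHD7 maximum, 177, was at the rank 9 peak (chr12:104442001-104442900), 27.7 kb from the protease inhibitor gene Serpina3n, and it was also shared. Of the next SOX2 peaks in strength on these sites, rank 9 lay on the rank 51 CHD7 peak at the start of chromosome 4 (chr4:3063801-3070000), rank 10 on the rank 27 peak in the immunoglobulin heavy chain locus Igh, and rank 12 on the rank 41 peak beside Mid1. The rank 13 CHD7 peak, 47.5 kb from the cell death gene Dap (total 45666, maximum 69), was on the rank 40 SOX2 peak.

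Small RNA genes were under 31 of the 328 strongest peaks (9.45%, 6.51 to 13.1%), against 0.656% of the other CHD7 peaks and 0.744% of all. Of these 31 peaks, 30 had SOX2, and the exception was the peak on Mir6481. The 31 include the 5 peaks of the 5S cluster, which the interval counts as separate peaks. Genes annotated as rRNA lay under 6 strongest peaks (1.83%) and 0 of the 32334 others, for which the interval reaches 0.0114%, and 0.0184% of all CHD7 peaks had one. Counted by gene, 49 of 63 annotated rRNA genes lay under a strongest peak. Genes for tRNA lay under 3 strongest peaks (0.915%) and 0.331% of the others (0.337% of all), so that the intervals overlapped. None of 1340 genes annotated as snoRNA lay under a strongest peak, while 24 lay under some CHD7 peak. The U3 genes, whose RNA guides ribosomal RNA processing, are annotated as snRNA and so are not in this count.

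Genes annotated as snRNA, a class that here holds U3 as well as RNAs of the spliceosome, were under 23 strongest peaks (7.01%, 4.5 to 10.3%). They were under 0.0804% of the others (0.15% of all). All 23 peaks had SOX2. Many lie in groups, such as 6 on chromosome 11 and 4 on chromosome 12, which the interval counts as separate peaks. The 23 peaks were 1550 to 4050 bases wide with maxima of 5.92 to 22.6 and totals of 4891 to 14806. Their SOX2 partners had a median rank of 139. Of 16 snRNA genes with an Rnu name or Rn7sk, 10 lay under a strongest peak, 15 under some CHD7 peak and 16 under a SOX2 peak. On chromosome 11 a 50.5-kb cluster in Tex14 (chr11:87422351-87472900) had 6 strongest peaks, over the U3 genes Rnu3b1, Rnu3b2, Rnu3b3 and Rnu3b4, the U1 gene Rnu1a1 and Gm22068. Their totals were 11873, 9473, 12210, 14806, 7761 and 9236. U3 guides processing of the ribosomal RNA precursor, and U1 recognises the start of introns. Elsewhere, strongest peaks lay on Rnu3a (total 8722), the U2 gene Rnu2-10 (9596), the U5 gene Rnu5g (7528), the U1 gene Rnu1b6 (7064) and the minor-spliceosome gene Rnu11 (4896). Outside the strongest 1% were Rnu1b2 (4345), Rnu1b1 (4017), Rnu12 (2191), Rn7sk (1052), which holds back transcription elongation, and Rnu7 (815), which serves histone RNA ends, and Rnu6 had a SOX2 peak but no CHD7 peak. Only 24 of 1003 annotated snRNA genes lay under a strongest peak, so the class as a whole was mostly uncovered.

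**Figure D5:**
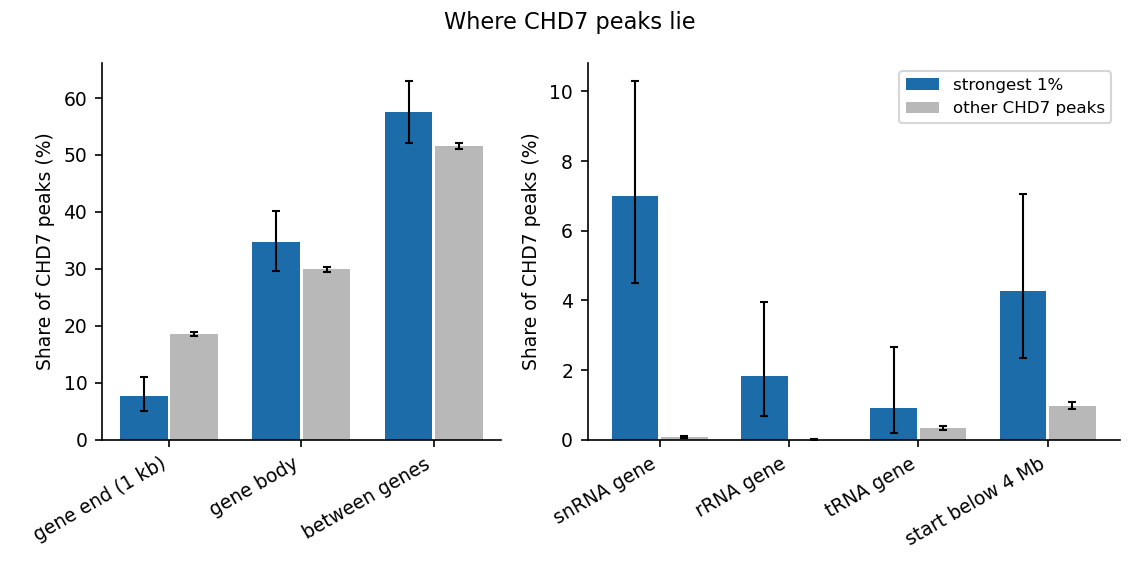
Share of CHD7 peaks (%) in each place, for the strongest 1% (blue, left) and the other CHD7 peaks (grey), with exact 95% binomial intervals; the panels have separate axes. The strongest peaks are at gene ends in 7.62% of cases against 18.6%, and on snRNA genes in 7.01% against 0.0804%.

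The strongest peaks were seldom at the ends of protein-coding genes. Within 1 kb of such an end lay 25 of them (7.62%, 4.99 to 11%), against 18.6% (18.2 to 19%) of the others and 18.5% of all. The band just below the limit, the 98th to 99th percentiles, stood at 20.8%. Inside genes, away from their ends, lay 114 (34.8%), against 29.9% of the others and 29.9% of all. Between genes lay 189 (57.6%), against 51.5% of the others and 51.6% of all. The median distance to a gene end was 23.6 kb, against 27.5 kb. Of the 25 strongest peaks at gene ends, 23 had SOX2 (92%, 74 to 99%), and the interval contained the 85.7% of the other CHD7 peaks at gene ends. The 2 exceptions were at the pheromone receptor gene Vmn2r2 (total 18167, maximum 24.1) and at the microfibril gene Mfap2 (total 14806, maximum 69.6).

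By gene, 38 of 21631 protein-coding genes had a strongest peak within 1 kb of an end, 0.176% of genes, and 470 (2.17%) had one inside or within 50 kb. Of the 38, 7 were predicted genes of the chromosome 6 copies or next to the 5S cluster (Gas8, a cilium gene). Others were the microtubule gene Mid1 (total 18281), the repressor Zbtb20 (10106), the adhesion gene Pxn with Sirt4 (10102), the acetyltransferase gene Kat6b (5679) and the Notch effector Hes7 with Aloxe3 (5374). The Hes7 peak also lay on 3 tRNA genes, and the Pxn peak on 2 snRNA genes. A single peak of rank 230 (chr13:23570701-23575350, total 6126) lay within 1 kb of an end of 5 histone genes, H2ac7, H2ac8, H2bc7, H2bc8 and H3c4. It ended before H3c4 and touched the other genes. These examples were chosen after their values were seen.

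The gene lists held about as few strongest peaks as the genome as a whole. Of 457 genes in 20 lists (otic, sensory, canal and neurogenesis genes, signalling pathways, SOX and remodeler families, housekeeping classes and markers of neighbouring tissues), 0 had a strongest peak at an end, where 0.176% of all protein-coding genes did, and 7 (1.53%) had one within 50 kb, against 2.17% of all protein-coding genes. At 0.176% fewer than 1 gene of the lists would carry such a peak, so the 0 says little about them. The lists are also not complete: the 5 histone genes above, Hes7 and the homeobox gene Irx1, 11.6 kb from the rank 224 peak, are not in them. Among the 7 were H1f3, H1f4 and H4c4 (14.9, 46.4 and 6.22 kb from the rank 230 peak), Acvr1 (19.8 kb), Tbx15 (40.9 kb) and Cdk6, with 2 peaks inside the gene. Among the 92 genes of the 4 otic lists, 54 (58.7%) had some CHD7 peak at an end, but the highest-ranked of these peaks was 574, at the homeobox gene Irx5 (total 3575, maximum 6.56, chr8:92355651-92358100). Next were the BMP target Id3 (rank 1177, total 2550) and the T-box gene Tbx2 (rank 1269, total 2464), and Sox9 stood at rank 2746 (1671). All 4 peaks had SOX2. For Chd7 the nearest strongest peak was 3.18 Mb away and the strongest CHD7 peak within 50 kb had rank 4470 (total 1293). For Sox2 the nearest was 7.92 Mb away and the local best had rank 7091 (total 1002). Of the lists for neighbouring tissues, those for blood and endothelium, hindbrain, neural crest and surface ectoderm had 0 of 52 genes within 50 kb, and that for periotic mesenchyme had 1 of 16 (6.25%), Tbx15, beside the 2.17% of all genes; with so few genes these counts do not stand apart.

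Strongest peaks also lay in groups. They fell into 278 loci when peaks within 50 kb were joined; 69 peaks (21%) had such a neighbour, and 10 loci held 3 or more. In the band just below, the 98th to 99th percentiles, 24 of 331 peaks (7.25%) had a neighbour of that band within 50 kb. The count rests on the ranking by total signal: it was 28 for the same number of peaks ranked by maximum signal and 14 ranked by signal per base. The largest group had 15 peaks over 136 kb between Hrh1, a histamine receptor gene, and Atg7, an autophagy gene (chr6:114498351-114634100). All 15 had SOX2, and their totals were 5060 to 21706. They were broad, 3050 to 14050 bases, with maxima of only 4.28 to 7.47, and they covered 110 kb of the span. No small RNA gene was annotated there. Chromosome 6, with this group and the group at Rn4.5s, held 38 strongest peaks (11.6%), against 5.63% of the other CHD7 peaks. In contrast, 3 peaks on chromosome 7 (chr7:64073351-64087900) and 3 on chromosome 17 (chr17:3005951-3023350) had no SOX2 peak in their spans, with maxima of 15.4 to 29.8 and 22 to 57.3. The chromosome 17 group lies at the start of the assembled chromosome, the centromere end in mice. Starts below position 4 Mb were seen for 14 strongest peaks (4.27%, 2.35 to 7.06%), against 0.974% of the others and 1.01% of all, and 8 of the 14 had SOX2. These 14 lie on 6 chromosomes. They include the 3 of the chromosome 17 group and 4 grouped on chromosome 4 (chr4:3050001-3086750), which the interval counts as separate peaks. Repeat annotation was not used here, and the part of multi-copy sequence in these signals was not tested.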

How the data were processed

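The members and gene lists were chosen with earlier results of these data known. The tools were Bowtie2, deepTools and SEACR and the build was mm10, per the submitters' processing notes. Not given in the sources used here are versions, settings, scaling, use of the control and the handling of duplicate and multiply mapped reads. Per the deposited lists, columns 4 and 5 hold the authors' coverage signal of each peak, summed and at its maximum; borders follow bins of 50 bases. Signal was used to rank peaks within a list. Overlaps, distances to RefSeq genes (GRCm38.p6) and word searches were computed with pandas 2.3.3 and numpy 2.4.6 under Python 3.11.15, with scipy 1.17.1 for intervals, Biopython 1.88 for the alignment and matplotlib 3.10.9 for plots. Overlaps and distances were checked on simulated peaks. With 1 library per antibody no test was run, and read depth is unknown, so precision is that of peak numbers. Genes and peaks were named by rank (20 strongest, widest, narrowest, highest maximum, 10 strongest without SOX2, on the 10 strongest SOX2 peaks), by having 2 or more strongest peaks at their ends, or by a listed gene within 50 kb; others, including the snRNA genes and loci, were picked once their values had been seen. Alternatives changed the percentile, the ranking, the windows, the overlap and the SOX2 list. Peaks on chromosome Y and unplaced sequences, the control library, genome sequence and repeat annotation were not used here. A gene of the lists is not reported here.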

Additional observations from a re-analysis of the deposited data

Results flagged for a closer look

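The CHD7 list also has 373 peaks on chromosome Y and on sequences not placed on a chromosome, which no comparison above used. Of these, 14 had a total signal at or above 4859, the limit that defined the strongest 1%, so that they would have counted among the strongest. That is 3.75% of them, where the limit keeps 1% of the peaks on chromosomes 1 to 19 and X. The control library is not analysed here, and no cause was tested.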

How the results depend on the processing

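No paired analysis was possible because there is 1 library per antibody and no test. Of 47 alternative values, 20 stayed within the interval of the reported value or within 1.5 times a reported count. For the strongest 0.5% the SOX2 share was 65.2%, the genes at an end 17, the median width 1875 bases, the ratio of median maxima 10.4, the grouped peaks 41 and the SOX2 rank percentile 99.9. For the strongest 2% they were 80%, 129 genes, a ratio of 5.37, 115 grouped peaks and 99.7, and the gene-end share was 14.3%. Ranking by maximum signal gave a SOX2 share of 61.3%, a width of 600 bases, a ratio of 10.9 and 28 grouped peaks. Ranking by signal per base gave 60.4%, 400 bases, 9.87, 14 grouped peaks, a gene-end share of 3.35%, 11 genes and a gene distance of 36906 bases. Under these 2 rankings (55.8 to 66.6% and 54.8 to 65.7%) and for the strongest 0.5% (57.4 to 72.5%), the intervals contain the 65.4% of all CHD7 peaks. The excess of the SOX2 share over the background thus depends on the ranking and the limit. Requiring maximum regions to coincide gave 21.6%. With transcription starts only, the share was 3.35% and 19 genes had one; with all annotated genes the distance was 10471 bases. Joining loci, or leaving out small RNA genes (both chosen after seeing the data), gave SOX2 shares of 71.9 and 71.4%. The causes were not tested, beyond the number of peaks each percentile keeps. Signal scaling, depth, duplicates and the control limit what the ranking can show.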
